A study of Mus musculus with 8 samples.

Results

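Fibroblast growth factors (FGFs) are secreted signals that bind receptor tyrosine kinases on nearby cells together with heparan sulfate, a sugar chain of the cell surface and matrix. The activated receptors phosphorylate Frs adaptors, which recruit Grb2 and start the Ras and MAP kinase cascade. In the embryo, FGFs act in the pluripotent epiblast, in the movement of mesoderm out of the primitive streak, in the growth of the heart fields and in exchange between endocardium, epicardium and heart muscle. The genes described here are the FGF ligands, receptors and close partners in mouse cells grown as embryoid bodies, clumps of stem cells that differentiate in a dish. They are all 33 rows whose symbol is Fgf followed by a number, Fgfr1 to Fgfr4, Fgfrl1, Fgfbp1, Fgfbp3, Frs2, Frs3, Klb or Flrt3, out of 34536 gene symbols in the deposited table.

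The 8 libraries were labelled endocardial (libraries A, C, E and G) or endothelial (B, D, F and H), 4 of each, and both groups came from embryoid body culture. The endocardium is the endothelium that lines the heart. No treatment, genotype, culture day, stem cell line or sort marker was given for either group in the sources used here. No label says that the libraries of a group came from separate cultures, so a p-value here measures the spread between libraries alone, and that spread may be technical. The total count per library ran from 6677667 to 11369363. Levels are given in CPM, the usual scaling of counts to a common library total, with totals first adjusted by TMM, a correction for composition, and 3 counts, the limit that a count of 0 allows, corresponded to between 0.267 and 0.438 CPM (counting error only).

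The labels were checked against marker genes. The endothelial adhesion gene Cdh5 lay at 119 to 157 CPM in the endocardial and at 14.5 to 17.1 CPM in the endothelial libraries, and the summed level of 20 endothelial markers at 1750 to 2155 against 510 to 955 CPM. By these markers the libraries labelled endothelial had the lower endothelial signal. Of 10 endocardial markers 9 were tested, and the endocardial libraries had higher calls for 4 and lower calls for 0 of them. Of all tested genes, 1.42% were called higher. The summed level of the endocardial markers was 851 to 990 against 359 to 599 CPM. Among them Nfatc1, a factor of the endocardium, lay at 44.6 to 56.0 against 7.82 to 13.6 CPM. The pluripotency factor gene Pou5f1 lay at 1.47 to 11.5 CPM in the endocardial libraries, with E the highest, and at 24.5 to 95.5 CPM in the endothelial libraries, with F the highest. All 15 pluripotency markers had counts over the 8 libraries together, though Dppa3 had 0 counts in A, C and G and Utf1 had 4, 1 and 2 there. The summed level of the 15 markers was 411 to 596 CPM in the endocardial and 520 to 1503 CPM in the endothelial libraries, and the groups overlapped. Lin28a had the highest mean of the list in both groups, at 350 and 353 CPM, and Dnmt3b had means of 82.3 and 81.3 CPM. The sum thus holds genes that differed little. In bulk RNA, fewer cells of a type cannot be told apart from less RNA per cell.

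Counts were compared with edgeR's quasi-likelihood test over all 13817 genes with enough counts, and a gene was called at a Benjamini-Hochberg adjusted p below 0.05. Of the 33 FGF genes, 19 had enough counts and 14 did not. Among the 19, 1 ligand gene, Fgf3, was called higher and 1 ligand gene, Fgf4, was called lower in the endocardial libraries. Over all tested genes, 1.42% were called higher, 1.16% lower and 2.58% in either direction. The other 17 tested FGF genes were not called. An unadjusted p under 0.05 was found for 6 of the 19 and for 14.6% of all tested genes, and 14 of the 19 had a log2 fold change below 0, against 47.5% of all. Their median log2 fold change was -0.20, against 0.01 over all tested genes. A gene passes the filter on low counts if enough libraries of either group have counts, and Fgf4 and Fgfbp1 passed it through the endothelial libraries, so the counts among the 19 are a description.

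Fgf3 and Fgf4 are neighbours on mouse chromosome 7 and lie on the same strand. Fgf3, which acts in the induction of the inner ear, is at chr7:144838083-144844436 of build GRCm38, and Fgf4, an autocrine signal of the early epiblast, is at chr7:144847367-144865243. A gap of 2.93 kilobases separates the annotated genes, and Fgf15 follows 31.3 kilobases after Fgf4, at chr7:144896531-144900953. The 250 bases before the RefSeq start of the called genes are shown because these 2 adjacent genes differed in opposite directions. They are GRCm38 sequence of the plus strand, at chr7:144838362-144838611 for Fgf3 and chr7:144861136-144861385 for Fgf4. The RefSeq starts of Fgf3, at 144838612, and of Fgf4, at 144861386, lie inside the genes as GENCODE annotates them. Both windows thus lie within the annotated genes and not before them. The gap given above does not end at the Fgf4 start whose sequence is shown. Capitals mark matches, on either strand, to 5 motifs. One TATA element searched was TATAAA. The other TATA element, which can overlap itself, was TATATA. The GC box of Sp factors was GGGCGG. The box of the nuclear factor Y complex was CCAAT. The motif of GATA factors was AGATAA.
Fgf3: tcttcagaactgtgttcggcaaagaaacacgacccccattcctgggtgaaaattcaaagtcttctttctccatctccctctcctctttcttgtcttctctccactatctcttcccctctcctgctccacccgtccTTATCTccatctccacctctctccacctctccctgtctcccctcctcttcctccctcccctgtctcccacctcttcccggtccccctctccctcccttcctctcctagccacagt
Fgf4: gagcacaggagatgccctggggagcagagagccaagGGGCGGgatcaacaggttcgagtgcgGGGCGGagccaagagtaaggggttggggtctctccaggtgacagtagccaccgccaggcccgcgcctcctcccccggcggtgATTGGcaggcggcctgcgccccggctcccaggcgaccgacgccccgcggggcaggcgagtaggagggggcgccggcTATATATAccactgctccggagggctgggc

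The windows before these RefSeq starts were unlike in composition. In the Fgf3 window 79.2% of the bases were C or T, a share above that of 99.9% of the 32851 RefSeq windows of this length, which had a median of 50%. The Fgf4 window was 71.2% G or C, against a median of 52.4%. It held GGGCGG at 214 and 188 bases before the start, CCAAT on the other strand at 106 bases, and TATATA at 30 and 28 bases before it. The Fgf3 window held AGATAA on the other strand, 115 bases before the start, and no match to the other 4 motifs. Of all windows, 32.7% held GGGCGG, 33.8% CCAAT, 5.25% TATATA, 12.4% TATAAA and 9.99% AGATAA. Such matches are descriptions of the letters and not of bound sites.

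Among the ligands, Fgf3 was at 48.9 CPM in library A, 41.1 in C, 29.9 in E and 21.3 in G of the endocardial group. In the endothelial group it was at 12.1 CPM in B, 15.3 in D, 5.11 in F and 10.4 in H. Every endocardial library was above every endothelial library, and F was the lowest of the 8. The means were 35.3 ± 12.2 and 10.7 ± 4.27 CPM (SD, n = 4 each), a 3.30-fold higher level in the endocardial libraries (log2 fold change 1.72, SE 0.34, adjusted p = 0.0323). The call was lost when libraries A (adjusted p = 0.0943), C (0.106), D (0.05003), E (0.0816) or H (0.0639) were left out, while the log2 fold change stayed between 1.47 and 1.94. It was also lost with no filter on low counts (adjusted p = 0.0557).

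Fgf4 had estimated counts of 3, 3, 22 and 5 in the endocardial libraries A, C, E and G. These are 0.387, 0.314, 2.37 and 0.624 CPM. In the endothelial libraries it was at 5.08 CPM in B, 5.26 in D, 28.8 in F and 9.21 in H. The groups did not overlap, and E was high among the endocardial and F among the endothelial libraries. The means were 0.923 ± 0.971 and 12.1 ± 11.3 CPM (SD, n = 4 each), a difference of -3.67 on the log2 scale (SE 0.79, adjusted p = 0.0441), or 12.7-fold lower in the endocardial libraries. Leaving out E raised the size of the difference to a log2 fold change of -4.76, and leaving out F lowered it to -2.80 (adjusted p = 0.0529). The call was also lost without A (adjusted p = 0.126), C (0.125), D (0.0606), G (0.132) or H (0.0622), and with no filter on low counts (0.0927). Of the tested genes, 9.76% had no overlap between the groups, and of the 19 FGF genes these were Fgf3, Fgf4 and, by a margin between 1.51 CPM in E and 1.52 in B, Fgfbp1.

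The count of Fgf3 relative to that of Fgf4 within a library summarises the opposite directions of the neighbours. It was 126 in A, 131 in C, 12.6 in E and 34.2 in G, and 2.39 in B, 2.92 in D, 0.178 in F and 1.13 in H. Fgf4 exceeded Fgf3 in library F only. Fgf15, the gene after them, was at 85.9, 78.8, 56.0 and 55.9 CPM in A, C, E and G, and at 58.3, 74.2, 56.1 and 42.5 CPM in B, D, F and H, so that its groups overlapped (log2 fold change 0.26, SE 0.20, adjusted p = 0.626). Within 200 kilobases of the cluster, the chloride channel gene Ano1 (-0.23, SE 0.18) and the cyclin gene Ccnd1 (0.17, SE 0.20) were tested and not called.

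**Figure D1:**
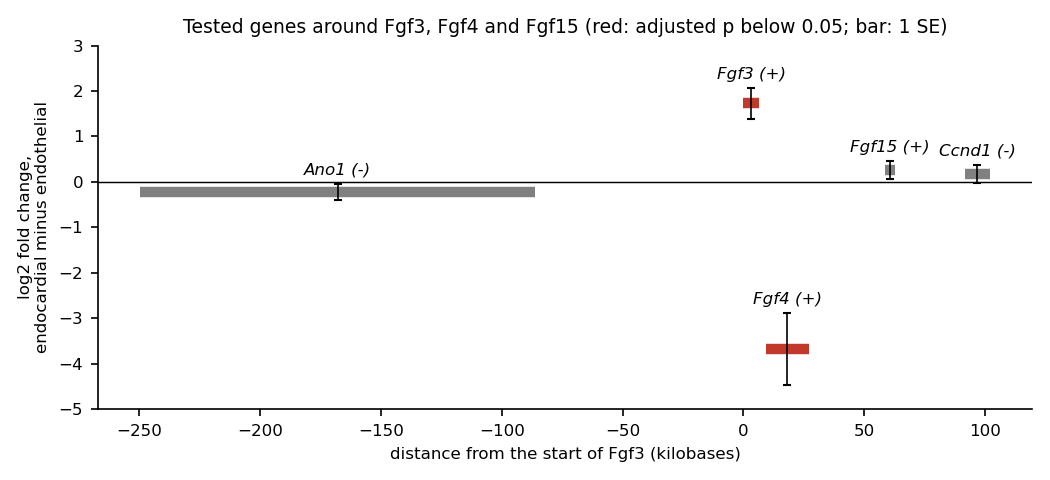
Log2 fold change (endocardial minus endothelial, vertical axis, bar 1 SE) of the tested genes around Fgf3, Fgf4 and Fgf15 against distance from the start of Fgf3 in kilobases; each horizontal block spans the annotated gene. Fgf3 at 1.72 and Fgf4 at -3.67 are adjacent and on opposite sides of 0, and the other 3 genes lie between -0.23 and 0.26.

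Fgf4 shared its highest library in each group with part of the pluripotency list. Pou5f1 was at 1.81, 1.47, 11.5 and 1.497 CPM in A, C, E and G, and at 25.3, 24.5, 95.5 and 27.4 CPM in B, D, F and H. Nanog was at 1.81, 2.51, 9.03 and 1.62 CPM in the endocardial libraries and at 10.3, 14.5, 80.4 and 15.4 CPM in the endothelial libraries. Library E, highest in Fgf4 in its group, was also highest in both genes there, and F was highest in all 3. Of the 15 pluripotency markers, 12 had E as the highest endocardial and F as the highest endothelial library, and the other 3, Klf4, Dnmt3b and Lin28a, had G and H. The share of all tested genes highest in E and F is not given here. Over all tested genes, the deviations of E and F from their group means correlated at 0.319. Neither Pou5f1 (adjusted p = 0.0569) nor Nanog (adjusted p = 0.102) was called. Of the pluripotency list 1 gene was called lower and 14 were below 0, and of 12 neural ectoderm markers 6 of 9 tested were called lower. Over all tested genes, 1.16% were called lower and 47.5% were below 0. The summed level of the neural ectoderm markers was 138 to 221 CPM in the endocardial and 192 to 313 CPM in the endothelial libraries, so the groups overlapped in it. The part of pluripotent or neural cells in the difference of Fgf4 was not tested.

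**Figure D2:**
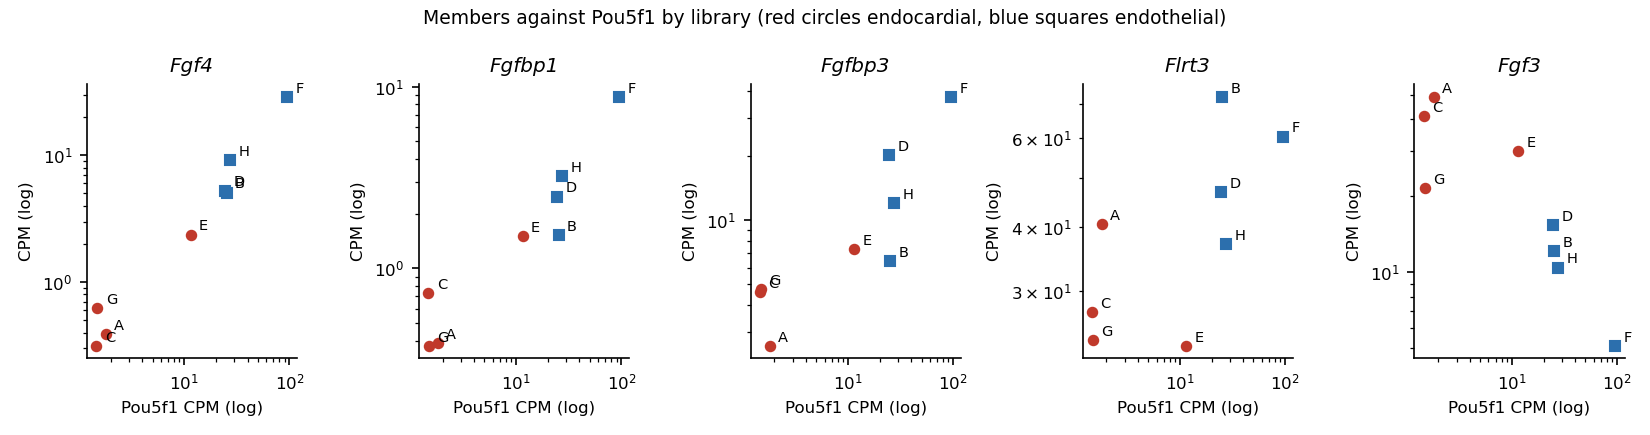
CPM of 5 FGF genes (vertical, log axis) against CPM of Pou5f1 (horizontal, log axis) in the 8 libraries, red circles endocardial and blue squares endothelial. Library F, with 95.5 CPM of Pou5f1, has the highest Fgf4, Fgfbp1 and Fgfbp3 and the lowest Fgf3, and library E, with 11.5 CPM, lies between the other endocardial and the endothelial libraries in Fgf4.

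The remaining tested ligands differed less than their spread allowed to call. Fgf10, a signal of the second heart field and of lung and limb buds (chr13:118669791-118792115), was at 34.6, 40.1, 34.3 and 41.0 CPM in A, C, E and G, and at 35.6, 31.4, 25.5 and 33.5 CPM in B, D, F and H. The groups overlapped, and the log2 fold change was 0.25 (SE 0.13, adjusted p = 0.433). Fgf8, which guides mesoderm out of the streak and patterns the heart field, was at 1.55, 2.83, 2.80 and 1.75 CPM in A, C, E and G of the endocardial group. In the endothelial libraries it was at 2.67, 2.77, 6.47 and 2.03 CPM in B, D, F and H, with F high (log2 fold change -0.64, SE 0.41, adjusted p = 0.559). Fgf2, an angiogenic ligand, was at 2.58, 1.67, 1.51 and 3.12 CPM in A, C, E and G, and at 2.32, 3.50, 1.77 and 2.15 CPM in B, D, F and H. Its groups overlapped, with a log2 fold change of -0.13 (SE 0.35). Fgf2 and Nudt6 lie on opposite strands and overlap, and since no source says whether the counting used strand, reads of this pair may not be told apart.

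Fgf5, a gene of the late epiblast, had a mean of 1.67 ± 0.791 CPM over the endocardial and of 2.63 ± 0.520 CPM over the endothelial libraries (SD, n = 4; adjusted p = 0.528). Its endothelial library was the higher in each of the 4 pairs of neighbouring letters (A and B, C and D, E and F, G and H), which no label pairs. Fgf1, which binds all FGF receptors, had 0.946 ± 0.509 and 1.03 ± 0.382 CPM. Both genes were low, at counts of at most 32 and 17 in any library.

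Of the 18 secreted ligands, 10 had too few counts to test. Fgf20 had no count in any library. Fgf21, Fgf16, Fgf22, Fgf6, Fgf23 and Fgf7, with totals over the 8 libraries of 3, 13, 16, 25, 26 and 32 counts, were at or near the limit of detection in most libraries. Their highest counts were 11 for Fgf7 in A, and 9 in C and 10 in E for Fgf23. Fgf9, by which endocardium and epicardium act on heart muscle, had counts of 4, 6, 10 and 6 in A, C, E and G, and of 11, 11, 23 and 7 in B, D, F and H. Fgf17 and Fgf18, close relatives of Fgf8, had totals of 49 and 68 counts. Fgf18 had 2, 4, 5 and 4 counts in A, C, E and G, and 9, 5, 24 and 15 in B, D, F and H. Tested without a filter on low counts, 0 of the untested members was called by edgeR, and 2, Fgf17 and Fgf18, had an unadjusted p under 0.05, with adjusted p-values of 0.234 and 0.161.

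Levels of different genes were compared per kilobase of annotated exons. Fgf15, known as a gut hormone and expressed in the embryonic nervous system and pharynx, led the ligands in both groups, at 22.6 ± 5.07 CPM per kilobase in the endocardial and 18.9 ± 4.25 in the endothelial libraries (SD, n = 4). In the endocardial group Fgf3 (15.2 ± 5.23) and Fgf10 (8.15 ± 0.772) followed, then Fgf8 (1.65 ± 0.501). In the endothelial group Fgf10 (6.84 ± 0.949) was followed by Fgf3 (4.62 ± 1.84), Fgf4 (3.78 ± 3.54) and Fgf8 (2.58 ± 1.49), and each of these neighbours in the order overlapped within 1 SD. In the endocardial group Fgf15 and Fgf3 overlapped within 1 SD, and Fgf10 lay apart from both Fgf3 and Fgf8. With the longest transcript as length, Fgf15 was at 38.2 and Fgf3 at 15.4 CPM per kilobase in the endocardial libraries, so the distance between these 2 genes depended on the length used. Fgf3, Fgf10 and Fgf15 together made up 86.8% to 93.8% of the ligand level per kilobase in the endocardial libraries. In the endothelial libraries they made up 81.8% in B, 83.4% in D, 57.2% in F and 75.0% in H. The share of Fgf3 was 29.4% ± 4.98 and 11.5% ± 4.47 (SD, n = 4), that of Fgf4 0.631% ± 0.703 and 8.97% ± 7.51, and that of Fgf15 44.6% ± 2.35 and 45.8% ± 6.56. The deposited values are per gene, so splice forms of the receptors or of Fgf8 were not resolved.

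**Figure D3:**
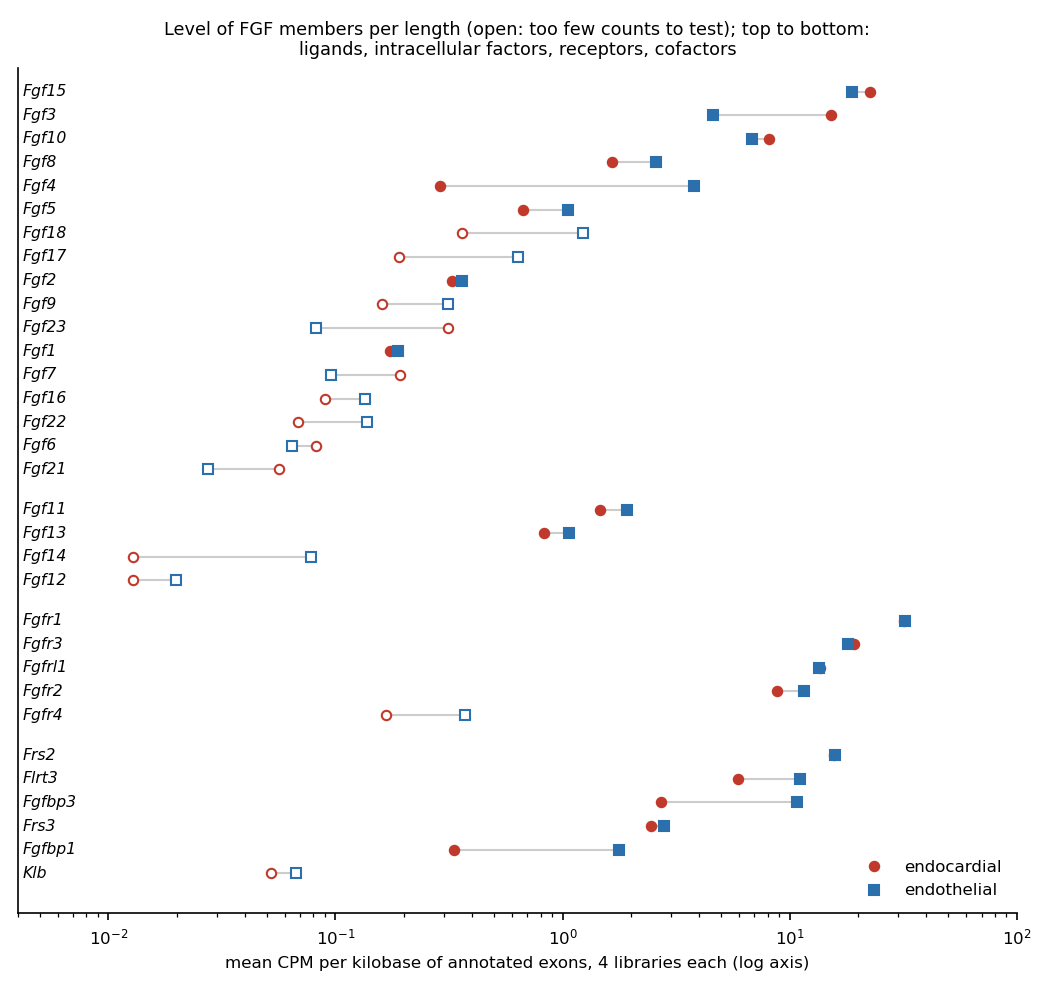
Mean CPM per kilobase of annotated exons (log axis) of the FGF members in the endocardial (red circles) and endothelial (blue squares) libraries, 4 each, with open symbols for genes with too few counts to test; Fgf20, at 0, is not drawn. Fgf15 leads the ligands and Fgfr1 the receptors in both groups, and Fgf3 and Fgf4 have long connecting lines in opposite directions.

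The intracellular FGF homologous factors are not secreted and bind voltage-gated sodium channels. For the endocardial and endothelial libraries, Fgf11 had 4.47 ± 2.53 and 5.85 ± 3.21 CPM and Fgf13 had 3.33 ± 0.329 and 4.30 ± 0.708 CPM (SD, n = 4), and neither was called (adjusted p = 0.787 and 0.576). Fgf12 and Fgf14 had totals of 8 and 15 counts.

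**Figure D4:**
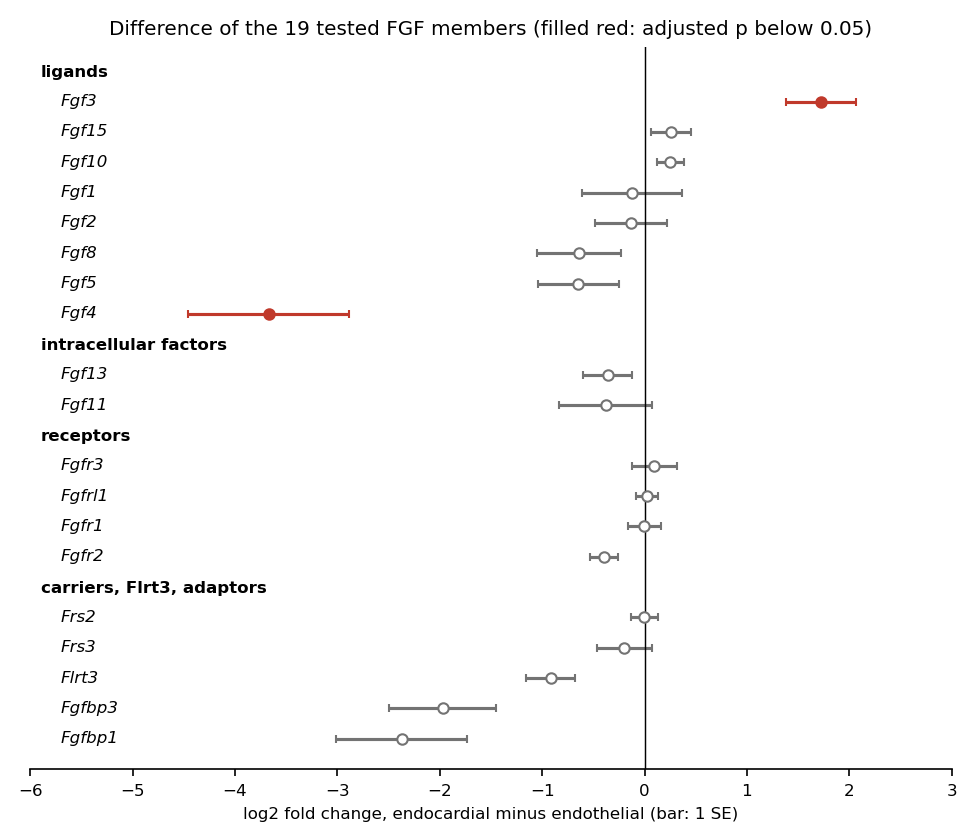
Log2 fold change (endocardial minus endothelial, horizontal axis, bar 1 SE) of the 19 tested members, grouped by role, with called genes in filled red. Fgf3 at 1.72 and Fgf4 at -3.67 were called, the receptors lie between -0.40 and 0.09, and Fgfbp1, Fgfbp3 and Flrt3 lie below 0 without a call.

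None of the 4 tested receptor genes was called. Fgfr1, the main FGF receptor of mesoderm (chr8:25513654-25575718), was at 285, 344, 257 and 379 CPM in A, C, E and G, and at 299.9, 344, 256 and 368 CPM in B, D, F and H. The difference between its group means was -0.0031 on the log2 scale (SE 0.16, adjusted p = 0.996). Its spread lay within the groups, and libraries of neighbouring letters had like levels. The largest ratio between endocardial and endothelial libraries of neighbouring letters was 1.05-fold, while the range over all 8 was 1.48-fold, from F to G.

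Fgfr3 showed the same arrangement. It was at 118, 139.5, 103 and 189 CPM in A, C, E and G, and at 131, 128.5, 88.8 and 167 CPM in B, D, F and H (log2 fold change 0.09, SE 0.22, adjusted p = 0.904). Its range over all libraries was 2.13-fold and the largest ratio between neighbouring letters 1.16-fold. The adaptor gene Frs2, which links the receptors to Grb2 (chr10:117069427-117148534), ranged from 110 CPM in F to 155 in H, 1.41-fold, against at most 1.08-fold between neighbouring letters. Its means were 137 ± 13.9 and 138 ± 21.1 CPM (SD, n = 4; adjusted p = 0.992).

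Fgfr2, the receptor for Fgf10 on epithelium, was lower in the endocardial libraries by less than the test required. It was at 91.8, 109 and 76.9 CPM in A, C and E and at 85.1 CPM in G, against 103, 131, 136 and 109 CPM in B, D, F and H. The groups overlapped in C, which lay above B and H (log2 fold change -0.40, SE 0.14, adjusted p = 0.190). The epithelial marker genes Cdh1 (log2 fold change -2.12, SE 0.41, adjusted p = 0.0310) and Epcam (-2.20, SE 0.48, adjusted p = 0.0465) were called lower in the endocardial libraries. They were 2 of 10 epithelial markers called, of which 8 were below 0 and none was called higher. Of all tested genes, 1.16% were called lower and 47.5% were below 0. The list's summed level was 569 to 949 against 724 to 1329 CPM, and the groups overlapped. Krt8 (means of 429 and 425 CPM) and Krt18 (267 and 247 CPM) had the highest means of the list and differed little. The part of epithelial cells in the level of Fgfr2 was not tested. Fgfr2 is annotated over chr7:130162451-133123350, a span that holds many other genes. Fgfrl1, a receptor without a kinase domain, was even across libraries, at 34.2 to 41.8 CPM (log2 fold change 0.02, SE 0.11). Fgfr4 had 8, 3, 6 and 3 counts in A, C, E and G and 6, 6, 22 and 13 in B, D, F and H, which was too few to test.

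Per kilobase of exons, Fgfr1 was the most abundant receptor, at 32.0 ± 5.62 CPM per kilobase in the endocardial and 32.1 ± 4.99 in the endothelial libraries (SD, n = 4). Fgfr3 followed at 19.2 ± 5.21 and 18.0 ± 4.47, then Fgfrl1 at 13.6 ± 1.11 and 13.4 ± 0.922, and Fgfr2 at 8.79 ± 1.33 and 11.6 ± 1.55. With the longest transcript as length, Fgfr2 (20.5 and 27.0) stood above Fgfrl1 (16.3 and 16.0), so the order of these 2 genes depended on the length used. On that length Fgfr1 was at 62.7 and 62.9 and Fgfr3 at 32.4 and 30.3, and both stayed above the other receptors. Fgfr1 made up 43.3% ± 0.820 and 42.4% ± 1.91 of the receptor level per kilobase.

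**Figure D5:**
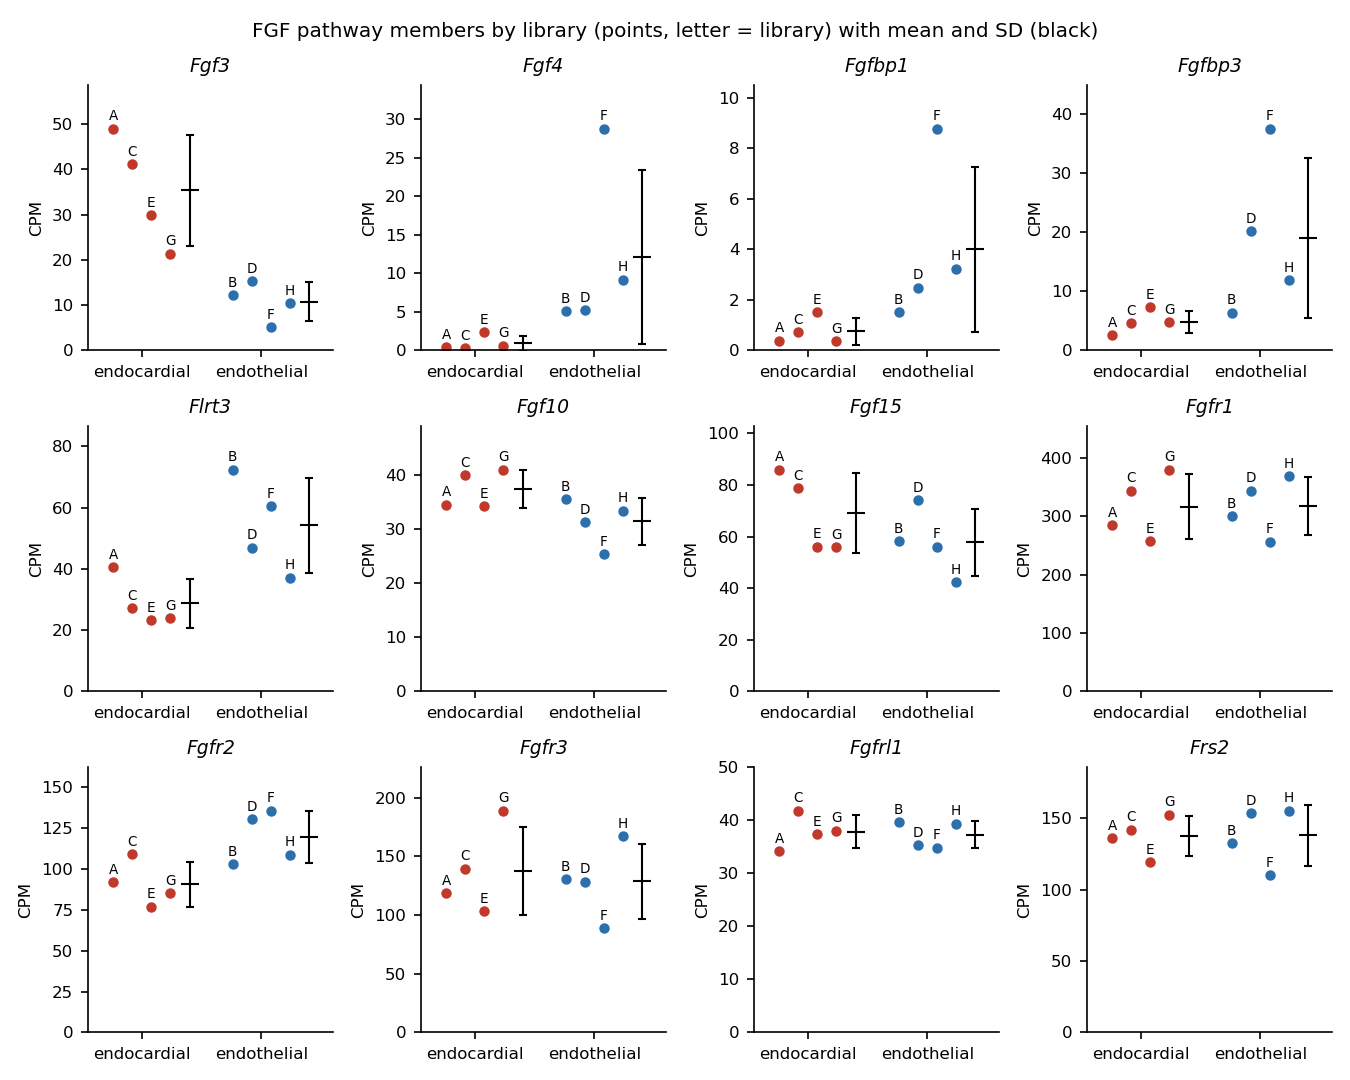
CPM of 12 FGF members in each library (points with the library's letter, red endocardial, blue endothelial) with the mean and SD of 4 libraries in black. Fgf3 separates the groups upward and Fgf4 downward in the endocardial libraries, and library F stands highest in Fgf4, Fgfbp1 and Fgfbp3. In Fgfr1 and Frs2 the neighbouring letters keep the same order in both groups. In Fgfr3 C lies above A, whereas D lies below B.

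Of the carriers and membrane partners, 3 had lower means in the endocardial libraries and missed the threshold. Fgfbp1 and Fgfbp3 code for secreted carriers that release FGFs from heparan sulfate in the matrix. Fgfbp3 (chr19:36917550-36919615) was at 2.58, 4.61, 7.31 and 4.74 CPM in A, C, E and G, and at 6.42, 20.2, 37.6 and 11.96 CPM in B, D, F and H. E lay above B, so the groups overlapped, and F was highest (log2 fold change -1.97, SE 0.52, adjusted p = 0.0911). Fgfbp1 (chr5:43978858-43981779) was at 0.387, 0.733, 1.51 and 0.374 CPM in A, C, E and G, and at 1.52, 2.48, 8.76 and 3.23 CPM in B, D, F and H. E and F were again highest in their groups (log2 fold change -2.37, SE 0.64, adjusted p = 0.0911). Without F the log2 fold change was -1.64 for Fgfbp1 and -1.42 for Fgfbp3. These are the same 2 libraries that were highest in Pou5f1, and the part of pluripotent cells was not tested.

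Flrt3, a leucine-rich repeat protein that binds FGF receptors and also acts in cell adhesion (chr2:140650914-140671469), followed another order of libraries. It was at 40.5, 27.2, 23.3 and 24.0 CPM in A, C, E and G, and at 72.3, 46.9, 60.4 and 37.1 CPM in B, D, F and H. B was highest and A, the lowest of all in Fgfbp3, lay above H (Flrt3 lies inside Macrod2, a low gene on the other strand). Flrt3 itself was not called (adjusted p = 0.0791), at a log2 fold change of -0.92 with an SE of 0.24. The endothelial library was the higher in each pair of neighbouring letters for Flrt3, Fgfbp1, Fgfbp3 and Fgfr2. The same held for Fgf4, Fgf5, Fgf13 and Fgf11, the last far from a call (adjusted p = 0.787). For Fgf3 the endocardial library was the higher in each pair. No label pairs these libraries, and the share of all tested genes with such an order is not given here. DESeq2 and limma called Fgfbp1 (adjusted p = 0.0126 and 0.0307), Fgfbp3 (0.00259 and 0.0365) and Flrt3 (0.0103 and 0.0197) lower in the endocardial libraries, where they called 3.85% and 4.09% of all genes lower. With neighbouring letters as a block, edgeR also called these 3 genes lower (adjusted p = 0.00486, 0.00270 and 0.00571), alongside 5.06% of all genes lower and 8.71% in either direction. With edgeR, leaving out B led to a call of Fgfbp1 (adjusted p = 0.0495) and Fgfbp3 (0.0258), and leaving out A or H to a call of Flrt3 (0.0435 and 0.0439). Frs3, the second Frs adaptor, had 7.65 ± 0.709 and 8.77 ± 3.39 CPM (SD, n = 4), and Klb, the coreceptor of Fgf15 and Fgf21, had a total of 20 counts.

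Beyond the ligands and receptors, the cascade was described from 3 further lists. Of 25 genes of signal transduction from the receptors, all tested, 1 was called higher and 0 lower, and 24 were not called. Over all tested genes, 1.42% were called higher and 1.16% lower. The called gene was Gab2, a docking adaptor that binds Grb2 and Shp2. It was at 27.5, 26.2, 26.3 and 28.6 CPM in A, C, E and G, and at 17.4, 14.9, 13.8 and 17.5 CPM in B, D, F and H. The groups were far apart relative to their spread (log2 fold change 0.77, SE 0.13, adjusted p = 0.0118), though the call was lost without D (adjusted p = 0.0527). The list's median log2 fold change was 0.10, against 0.01 over all tested genes, and 4 of the 25 were below 0, against 47.5% of all.

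Of 19 target and feedback genes of FGF signalling, 17 were tested, of which 1 was called lower, 0 were called higher and 16 were not called. Of all tested genes, 1.16% were called lower. The called gene, Cnpy1, codes for a protein that aids FGF receptors in the midbrain of zebrafish. It was at 0.387, 0.209, 0.323 and 0.374 CPM in A, C, E and G, and at 2.50, 2.63, 12.1 and 1.67 CPM in B, D, F and H, with F high again (log2 fold change -3.84, SE 0.74, adjusted p = 0.0267). Its estimated counts in A, C, E and G were 3, 2, 3 and 3, near the limit of detection. Cnpy1 passed the filter on low counts through the endothelial libraries, so its fold change and call are a description. Without F the log2 fold change was -2.79 and the call remained (adjusted p = 0.00826). It was lost without A (adjusted p = 0.0778), C (0.0983), D (0.0514), E (0.0949) or G (0.0895). Common readouts of FGF receptor activity were not called, among them Dusp6 (log2 fold change 0.16, SE 0.31), Spry4 (0.56, SE 0.24), Spry2 (0.07, SE 0.22), Etv4 (0.20, SE 0.26) and Etv5 (-0.53, SE 0.22). These 5 were named after their values were seen. Of the 17 tested genes, 6 had an unadjusted p under 0.05, against 14.6% of all tested genes. They were Cnpy1, Etv5, Spry4 and the feedback genes Spred3 (log2 fold change -0.62, SE 0.22), Il17rd (-0.36, SE 0.16) and Spred2 (-0.27, SE 0.11). With edgeR, leaving out H led to a call of Spred3 (adjusted p = 0.0390). With neighbouring letters as a block, edgeR called 5 genes of the list, which were Cnpy1 (log2 fold change -3.64, adjusted p = 0.00499) and Etv5 (-0.50, 0.0395) lower, and Spry4 (0.55, 0.0491), Dusp4 (0.38, 0.0348) and Myc (0.74, 0.0149) higher. That block called 8.71% of all tested genes in either direction. The list's median was -0.12, and 11 of the 17 were below 0, against 47.5% of all tested genes.

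Of 22 genes that make, carry or edit heparan sulfate, 20 were tested and 0 were called by edgeR, with an unadjusted p under 0.05 for 6 of the 20, against 14.6% of all tested genes. DESeq2 called Sdc1 and Sdc4 lower (2 genes, beside 6.25% of all genes) and limma called Sdc3 higher (1 gene, beside 7.06% of all). With neighbouring letters as a block, edgeR called 5, which were Sdc4 (adjusted p = 0.0182), Sulf2 (0.00720), Gpc4 (0.0339) and Hs6st1 (0.0377) lower and Sdc3 (0.0158) higher. That block called 8.71% of all tested genes in either direction. With no block, the smallest p-values belonged to the syndecan genes Sdc1 (log2 fold change -0.35, SE 0.11, adjusted p = 0.128) and Sdc4 (-1.32, SE 0.40, adjusted p = 0.140) and to Sulf2, an enzyme that removes sulfate from heparan sulfate (-0.63, SE 0.21, adjusted p = 0.174). Sdc4 was at 21.4, 21.5, 30.8 and 19.1 CPM in A, C, E and G, and at 31.9, 34.5, 117 and 47.2 CPM in B, D, F and H, with E and F highest in their groups and no overlap. Sdc1 (117 to 143 against 141 to 170.5 CPM) and Sulf2 (129 to 214 against 209 to 375 CPM) overlapped. The list's median was -0.15, and 15 of the 20 were below 0, against 47.5% of all tested genes.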

How the data were processed

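RNA of 8 samples was sequenced from a stranded mRNA kit, per the labels' protocols. Each deposited value is an estimated count for a gene symbol. Salmon, DESeq2 and build mm10 are named, without roles or versions, per the submitters' processing notes. They are whole numbers, and rounding them again changed nothing. The transcript set is not given in the sources used here, nor are filters. Counts were filtered with filterByExpr (minimum count 10, total 15), TMM-scaled and tested by robust quasi-likelihood over all 8 libraries, with no block (edgeR 4.0.16, R 4.3.3). The test was checked on simulated counts drawn independently for each library, so that check does not cover libraries that deviate together. An SE is the size of the log2 fold change over the root of F. Exon lengths and gene coordinates are from GENCODE M21 of GRCm38, the assembly of mm10, 1-based. RefSeq windows (GRCm38) matched 26 of 33 members. Every member is named. Values in every library were given for members with an unadjusted p below 0.05, Fgfr1 to Fgfr4, Fgf2, Fgf4, Fgf8 and Fgf10. From other pathway lists, genes named were called in the main fit or an alternative, or were among up to 3 with the smallest p. Outside that rule, Dusp6, Spry4, Spry2, Etv4 and Etv5 were named after their values were seen. Spred2 and Il17rd were added for an unadjusted p under 0.05. The members and lists were chosen with earlier results of these data known. Alternatives were DESeq2 1.42.0, limma 3.58.1 (voom with sample quality weights), RLE and upper-quartile scaling, no filter, a filter of 1 CPM in 4 libraries with a total of 100, estimation without robustness, neighbouring letters as a block, a threshold of 0.01, the longest transcript as length, and leaving out each library.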

Additional observations from a re-analysis of the deposited data

Results flagged for a closer look

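Of 45 groups of 4 libraries in which an FGF gene reached 10 counts, 3 held a library whose gap to its nearest neighbour was above Dixon's critical share of the group's range. Chance gives about 1 such group in 20. Fgf4 was at 2.37 CPM in endocardial library E, against 0.314 to 0.624 in the other endocardial libraries. Fgf8 was at 6.47 CPM in endothelial library F, against 2.03 to 2.77 in the others. Frs3 was at 6.58 CPM in endocardial library A, below 7.96 to 8.06 in the others.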

How the results depend on the processing

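The number of genes called over the whole table was 356, and 860 with DESeq2, 975 with limma, 1204 with neighbouring letters as a block, 104 at a threshold of 0.01 and 135 to 457 when each library was left out. Members called higher numbered 1, with 0 without a filter and at 0.01, and 0 to 1 when each library was left out. Members called lower numbered 1, with 4 under DESeq2, limma and that block, which called 3.85%, 4.09% and 5.06% of all genes lower (Fgf4, Fgfbp1, Fgfbp3 and Flrt3), 0 without a filter and at 0.01, and 0 to 3 when each library was left out. Without a filter the adjusted p was 0.0557 for Fgf3 and 0.0927 for Fgf4, over 22728 genes. Target and feedback genes called were 5 with the block, 0 at 0.01 and 0 to 2 when each library was left out; those of signal transduction were 0 at 0.01 and 0 to 1. Heparan sulfate genes called were 2 by DESeq2, 1 by limma, 5 with the block and 0 when any library was left out. In either direction, DESeq2, limma and the block called 6.25%, 7.06% and 8.71% of all genes. The labels do not pair neighbouring letters, though their deviations from the group means correlated at 0.319 to 0.642 across genes, against -0.445 to 0.0582 for other pairs. Fgf3, Fgf4, Fgf5, Fgf8, Fgf10, Fgf13, Fgf15, Fgfr2, Fgfbp1, Fgfbp3 and Flrt3 kept their direction in all alternatives run. Genes near 0 did not: Fgf1 was at 0.22 with limma, Fgfr1 at 0.000249 without a filter, Fgfrl1 at -0.0195 with upper-quartile scaling, and Frs2 at 0.00223 with the block. When each library was left out, log2 fold changes ran from -0.37 to 0.15 (Fgf1), -0.33 to 0.0850 (Fgf2), -0.86 to 0.0444 (Fgf11), -0.11 to 0.0729 (Fgfr1), -0.0840 to 0.24 (Fgfr3), -0.0480 to 0.0612 (Fgfrl1), -0.12 to 0.0545 (Frs2) and -0.35 to 0.0773 (Frs3). The causes were not tested. At a count of 0 the depth allows up to 0.267 to 0.438 CPM.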
